A study of Homo sapiens with 12 samples.

Results

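The 53 genes described here copy the genome in S phase or supply the deoxynucleotides that copying uses. They were chosen by symbol for their known roles, with earlier results of these data known. Each gene was read on 1 probe set, the one with the highest mean over all 12 arrays among the gene's probe sets annotated to a single symbol. Of the 53 genes, 52 were among the 10050 genes with a probe set at or above 5 log2 units on at least 3 arrays. The remaining gene, CLSPN, which encodes the checkpoint adaptor claspin, did not reach this level.

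The samples were HK-2 cells, human proximal tubule epithelium of the kidney that was immortalised to grow as a line, in a project that looked for expression signatures of toxicity to the kidney. Total RNA was hybridised to Affymetrix arrays in 4 groups of 3 biological replicates: HK-2 cells exposed to a compound the labels call Ra for 12 h, HK-2 cells given the control vehicle for 12 h, and the same pair at 48 h. All groups were grown in the same medium, supplemented with EGF, hydrocortisone, insulin, transferrin and selenite, and were close to confluence when exposure began. All samples come from 1 cell line, and Ra's dose is not given in the sources used here. Levels are deposited GCRMA values in log2 units, so a difference of 1 is a 2-fold change, and levels of different probe sets were not compared with each other. A gene is said to have risen or fallen where limma's adjusted p, taken over all 10050 genes, was under 0.05. Differences are given ± limma's SE, from the fit over all 12 arrays unless another fit is named, with 3 arrays a group. This SE pools the spread of all 4 groups, so it understates the spread at 48 h and overstates that at 12 h. For MCM10 it was 0.39, against 0.50 on the 48 h arrays alone and 0.09 on the 12 h arrays alone. For PCNA it was 0.22, against 0.29 and 0.04. Values of single arrays are given in the order of replicates 1 to 3.

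DNA replication starts where the origin recognition complex loads, with CDC6 and CDT1, the MCM2-7 helicase onto DNA in G1, and firing kinases with CDC45 and the GINS complex switch that helicase on in S phase. Polymerase alpha then starts new strands, and polymerases epsilon and delta copy on with the PCNA clamp. Ribonucleotide reductase and thymidylate synthase make the deoxynucleotides. Many of these genes are targets of E2F transcription factors, and cells that have left the cycle hold little of their transcripts.

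The labelled cell type was set against its markers. Of 8 proximal tubule markers with a named probe set, the transcription factor PAX8 was above the filter, and LRP2, CUBN, SLC34A1, SLC5A2, AQP1, GGT1 and ANPEP had group means between 2.10 and 4.28 log2 units, under the filter. All 5 epithelial markers were above it, 3 of 6 fibroblast markers (COL1A1, DCN and LUM) were, and 0 of 5 endothelial and 0 of 3 immune markers were. The summed log2 level of the epithelial list ran from 53.4 to 56.7 in Ra 48 h cells and from 55.6 to 57.9 in control 48 h cells, and that of the fibroblast list from 32.8 to 36.1 in Ra 48 h cells and from 32.6 to 35.8 in control 48 h cells. The adhesion gene CDH1 fell by 1.48 with Ra at 48 h (limma adjusted p = 0.042); the part of such shifts in the results was not tested. In bulk RNA, fewer cells in S phase and less RNA per cell cannot be told apart.

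A single array stood apart. The values of Ra 48 h replicate 2 had an SD over probe sets of 2.81, against 3.09 to 3.14 on the other 11 arrays, and the median of all genes on it lay 0.65 below the mean of control 12 h cells. Differences between Ra and control at 48 h are also given without it where that changed a call or a sign or moved a named gene's value by over 1.5 times.

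At 48 h, at least 1 gene of every step of replication was higher in Ra cells than in control cells. Of the 52 genes tested 23 rose with Ra and 0 fell, against a background of 12.6% of all genes called, 3.00% higher and 9.56% lower; the 23 are 44.2% of the genes tested. The median difference was 0.66 log2 units, beside -0.20 over all genes, and 43 of the 52 had higher means in Ra cells. The risers were the licensing factor CDT1, all 6 subunits of the MCM2-7 helicase, MCM10, GINS1, GINS2, POLA1, POLA2, POLE, PCNA, RPA3, FEN1, LIG1, RRM2, TYMS, UHRF1, CHAF1A, ASF1B and DTL. Their adjusted p ran from 0.0098 to 0.0435, and 13 of them changed at least 2-fold.

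All 3 Ra arrays lay above all 3 control arrays for 27 of the 52 genes, against a background of 5.37% of all genes, and below them for 1 gene, ORC5, against a background of 18.6%. Without Ra 48 h replicate 2 the count that rose was 33 (background 11.2%) and the median was 0.81, beside 0.01 over all genes, and 35 genes lay wholly above control (background 23.2%). The 11 genes that newly passed were ORC1, ORC3, CDC45, PRIM1, POLD1, POLD3, RFC4, RFC5, RPA1, RPA2 and DUT, and CDT1 no longer did. Leaving out other arrays at 48 h moved the count both ways. Of the control 48 h arrays, 3 genes were called without replicate 1, 1 without replicate 2 and 32 without replicate 3. Of the Ra 48 h arrays, 26 were called without replicate 1 and 8 without replicate 3. The shares of all genes called in these fits are not given here. After centring each array on the median of the genes tested, 39 rose (background 15.7%) and 2 fell (background 12.8%). Fitted on the 6 arrays of 48 h alone, with 0 of all 10050 genes called, 0 of the 52 passed (lowest adjusted p = 0.191), although 24 had higher and 1 lower values at an unadjusted p under 0.05, as did 404 and 1344 of all genes. The calls therefore rest on a spread estimated over all 4 groups, and at 48 h the median SD of these genes was 0.41 in Ra cells and 0.44 in control cells, against 0.09 in Ra cells and 0.08 in control cells at 12 h.

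**Figure D1:**
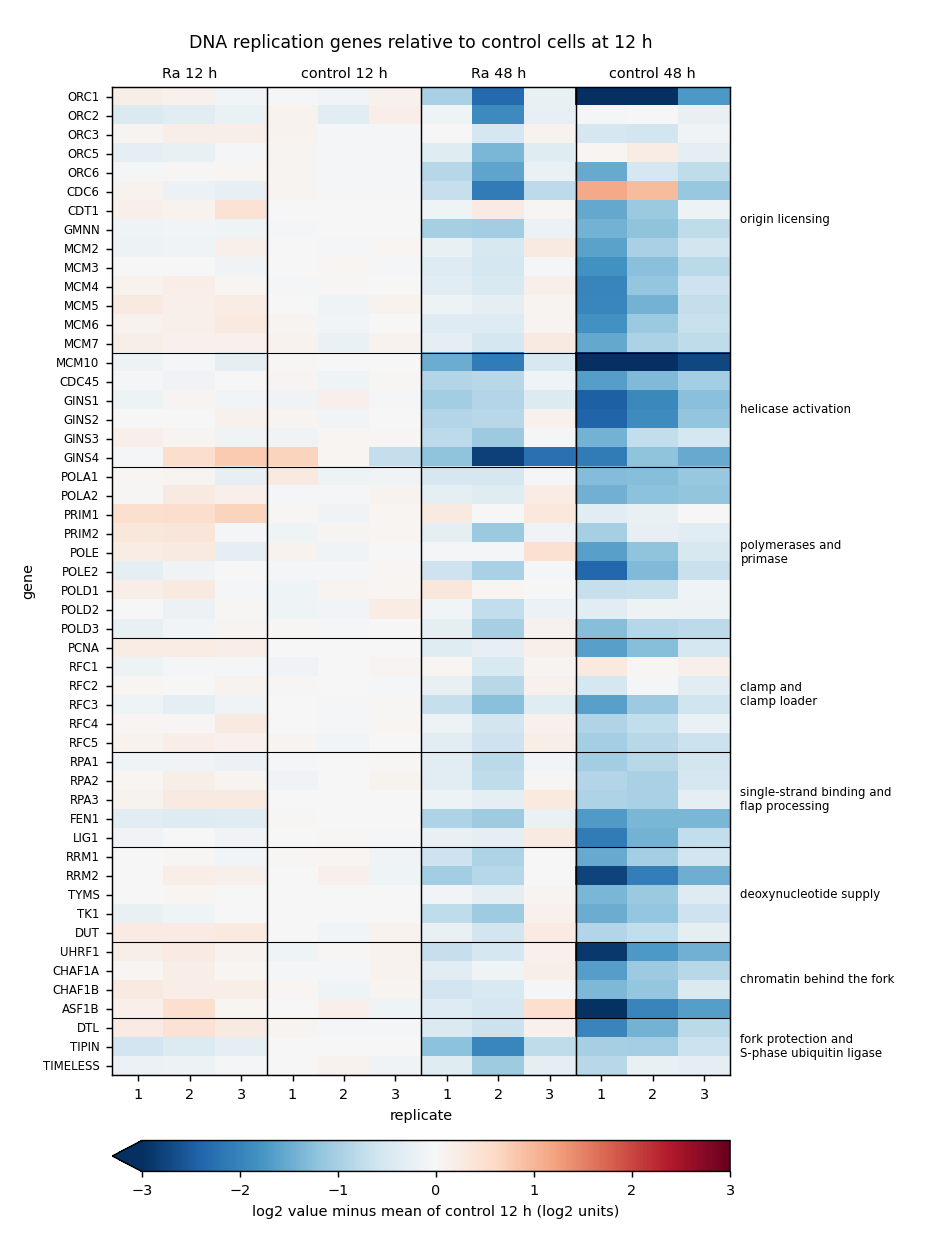
Values of the 52 genes tested on all 12 arrays (columns, by group and replicate), as the log2 value minus the mean of control 12 h cells, with genes in order of their role. The darkest blue also stands for values under the scale. Control 48 h arrays are blue for most genes, deepest in replicate 1, Ra 48 h arrays are paler with replicate 3 near white, and CDC6 is red in control 48 h replicates 1 and 2.

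Some of these genes carry at their start sites the letters that E2F factors are known to bind, and a few such stretches are printed beside the differences. RefSeq start sites (GRCh38.p14) gave a 300-base stretch, 250 bases before to 50 after the first listed start, for 47 of the 53 genes; MCM4, MCM5, GINS4, POLD3, RPA2 and RPA3 are named only. The letters TTTGGCGC, TTTGCCGC, TTTCGCGC or TTTCCCGC, on either strand, stood in 21 of the 47 (44.7%), against 5.66% of the 8361 genes tested that have a promoter here and 3.33% of all 27305 promoters. They stood in 15 of the 20 risers with a promoter (75%) and in 6 of the other 27 genes (22.2%). The letters CCAAT, known from the NF-Y box, stood on either strand in 14 of the 20 risers (70%) and 15 of the other 27 (55.6%), against 37.3% of the genes tested and 35.7% of all promoters; the 2 kinds of letters overlapped in 1 of the 47 genes, MCM7. A match describes the letters of this window and does not show that a factor binds there. The lack of an exact match does not show that none binds.

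The stretches below hold the match nearest the start site in 10 genes that rose and in CDC6 and RFC3, which did not pass, with the match in capitals and 6 bases on each side. They were chosen after the values were seen, to show every role that has a match among the risers.
MCM2, chr3:127598407-127598426, plus strand: accactTTTCGCGCgaaacc
MCM6, chr2:135876516-135876535, minus strand: ggtttgGCGCGAAAtctcca
MCM7, chr7:100101393-100101412, minus strand: gcgacgTTTCGCGCcaattt
GINS2, chr16:85688972-85688991, minus strand: gccgtgGCGGGAAAacggcg
POLA2, chr11:65261903-65261922, plus strand: tcccggTTTCGCGCatgcgt
PCNA, chr20:5126668-5126687, minus strand: tcagggGCGGGAAAaggcgt
LIG1, chr19:48170445-48170464, minus strand: acccctTTTCCCGCcctcct
TYMS, chr18:657608-657627, plus strand: acggccGCGGGAAAaggcgc
UHRF1, chr19:4909481-4909500, plus strand: gttttcGCGGGAAAaaaatc
DTL, chr1:212035734-212035753, plus strand: cgtcagTTTGGCGCggagtt
CDC6, chr17:40287880-40287899, plus strand: ttcggaTTTGGCGCgagcgc
RFC3, chr13:33818088-33818107, plus strand: gagctcGCGGGAAAacttgt
In the 21 genes the first base of the nearest match lay between positions -137 (POLA1) and 7 (CDC6) from the start site. MCM6 held 4 matches, and MCM2, MCM3 and MCM7 held 2 each. Those of MCM2 overlap, 1 on each strand.

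Origin licensing held both the lowest difference of the 52 genes, that of CDC6, and one of the highest, that of ORC1. Of its 14 genes 7 rose with Ra at 48 h, and the median difference was 0.90. ORC1, the largest subunit of the origin recognition complex, read 7.03, 5.68 and 7.80 log2 units in Ra 48 h cells and 3.59, 4.91 and 6.28 in control 48 h cells, beside 7.94 to 8.19 on the 6 arrays at 12 h. The groups at 48 h overlapped, through Ra replicate 2 and control replicate 3. The difference was 1.91 ± 0.59 and missed the threshold (limma adjusted p = 0.051); without Ra 48 h replicate 2 it was 2.49 (adjusted p = 0.018). Control values of ORC1 under 5 log2 units depend on GCRMA's background model.

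CDC6, the ATPase that helps the origin recognition complex load MCM2-7, had a lower mean in Ra cells. It read 9.50, 8.07 and 9.39 in Ra 48 h cells, against 11.30, 11.13 and 9.05 in control 48 h cells, and 9.93 to 10.29 at 12 h. Control 48 h replicates 1 and 2 were higher than all other arrays, while control replicate 3 was lower than 2 of the Ra arrays. The difference of -1.51 ± 0.51 did not pass (limma adjusted p = 0.067), nor without Ra 48 h replicate 2 (-1.05, adjusted p = 0.17). After centring each array on the median of the genes tested it passed, at -1.26 (adjusted p = 0.040). The other probe set of CDC6 above the filter gave -1.06.

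The 300-base promoters of ORC1 and CDC6 are shown because their differences lay at opposite ends; capitals mark E2F and CCAAT letters on either strand.
ORC1, chr1:52404374-52404673, minus strand: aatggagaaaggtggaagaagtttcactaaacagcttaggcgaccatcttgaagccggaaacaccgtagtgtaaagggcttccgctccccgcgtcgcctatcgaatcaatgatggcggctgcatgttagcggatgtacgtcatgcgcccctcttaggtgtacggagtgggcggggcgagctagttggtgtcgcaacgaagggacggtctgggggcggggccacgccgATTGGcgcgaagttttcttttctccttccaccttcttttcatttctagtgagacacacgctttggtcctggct
CDC6, chr17:40287629-40287928, plus strand: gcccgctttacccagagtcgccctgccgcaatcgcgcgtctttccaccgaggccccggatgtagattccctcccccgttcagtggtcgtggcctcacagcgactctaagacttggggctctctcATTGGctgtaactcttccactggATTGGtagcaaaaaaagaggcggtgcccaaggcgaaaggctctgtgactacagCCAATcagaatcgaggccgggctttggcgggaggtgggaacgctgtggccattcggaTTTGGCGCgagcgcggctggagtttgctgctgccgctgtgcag
The ORC1 stretch held 0 E2F matches and 1 CCAAT match, and the CDC6 stretch held 1 E2F match and 3 CCAAT matches.

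The subunits of MCM2-7, the ring that unwinds DNA ahead of the fork, moved together. MCM5 had the largest difference of the 6, 1.23 ± 0.25 (a fold of 2.35, limma adjusted p = 0.014), and MCM2 had 0.90 ± 0.25 (adjusted p = 0.036). MCM5 read 10.74, 10.60 and 10.98 in Ra 48 h cells and 8.95, 9.48 and 10.19 in control 48 h cells. MCM2 read 11.43, 11.16 and 11.92 in Ra 48 h cells and 10.04, 10.68 and 11.09 in control 48 h cells. Ra and control arrays at 48 h did not overlap for any of the 6. CDT1, the factor that brings the ring to the origin, rose by 0.99 ± 0.29 (adjusted p = 0.043, and 0.069 without Ra 48 h replicate 2), whereas its inhibitor geminin, GMNN, missed the threshold at 0.38 ± 0.22 (adjusted p = 0.25). The other subunits of the origin recognition complex did not pass: differences were 0.26 for ORC3, 0.05 for ORC6, -0.68 for ORC2 and -0.70 for ORC5. With Ra 48 h replicate 2 left out, ORC3 passed as higher (0.45, adjusted p = 0.041), and ORC6 had 0.41 and ORC5 -0.36. ORC5 was the gene whose Ra arrays all lay under the control arrays, and it passed as lower after centring (-0.45, adjusted p = 0.027). ORC2 read 6.69 in Ra 48 h replicate 2 and 8.49 and 8.36 in the other Ra 48 h arrays, and differed from control by -0.10 without that array.

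Of the 6 genes of helicase activation 3 rose, and the median difference was 0.91. MCM10, which helps the loaded helicase to open the origin, read 7.36, 6.75 and 8.38 in Ra 48 h cells, against 4.72, 5.78 and 6.13 in control 48 h cells, and 8.57 to 8.88 at 12 h. The groups did not overlap at 48 h, and the difference of 1.95 ± 0.39 (limma adjusted p = 0.015) is a fold of 3.87. Other probe sets of MCM10 gave smaller differences of 0.96 and 0.99. GINS2, a subunit of the GINS ring of the active helicase, read 9.94, 9.98 and 10.94 in Ra 48 h cells and 8.40, 8.93 and 9.64 in control 48 h cells, with 10.74 to 10.94 at 12 h. Every Ra array was above every control array, and Ra replicate 3 was at the level of 12 h (difference 1.30 ± 0.30, adjusted p = 0.023). GINS1 rose by 1.11 ± 0.26 (adjusted p = 0.023). CDC45, the partner of GINS, had 0.72 ± 0.23 (adjusted p = 0.060), GINS3 had 0.24 and GINS4 had -0.48, and none of these passed. CDC45 passed when Ra 48 h replicate 2 was left out (0.83, adjusted p = 0.032), and there GINS3 had 0.47 and GINS4 -0.12.

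The promoter of MCM10 is printed in the same way, as that of the largest rise in this role.
MCM10, chr10:13161308-13161607, plus strand: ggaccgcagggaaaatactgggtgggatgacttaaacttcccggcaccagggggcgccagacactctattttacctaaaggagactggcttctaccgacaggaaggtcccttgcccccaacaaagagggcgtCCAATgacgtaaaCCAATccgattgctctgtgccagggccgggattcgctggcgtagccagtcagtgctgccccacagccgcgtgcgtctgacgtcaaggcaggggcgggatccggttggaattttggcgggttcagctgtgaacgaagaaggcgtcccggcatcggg
It held 0 E2F matches and 2 CCAAT matches.

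**Figure D2:**
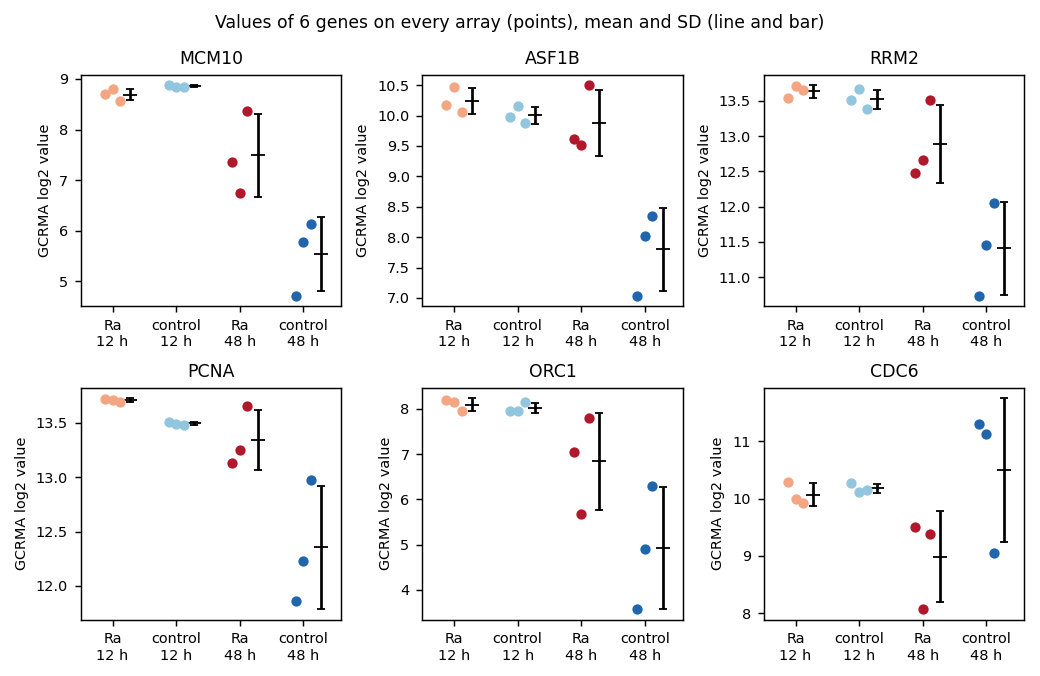
GCRMA log2 values (y axis, one scale per gene) of MCM10, ASF1B, RRM2, PCNA, ORC1 and CDC6 on every array of the 4 groups (points, replicates 1 to 3 from left to right), with the group mean (short line) and SD (bar, n = 3). The 6 arrays at 12 h lie close together for each gene, Ra 48 h points lie above control 48 h points for MCM10, ASF1B, RRM2 and PCNA, and the groups overlap for ORC1 and CDC6.

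Of the 9 polymerase and primase genes 3 rose, with a median difference of 0.63. POLE, the catalytic subunit of the leading-strand polymerase epsilon, read 8.28, 8.31 and 8.80 in Ra 48 h cells, against 6.71, 7.13 and 7.86 in control 48 h cells and 8.06 to 8.62 at 12 h. Ra arrays at 48 h overlapped with those at 12 h for this gene (difference from control 1.23 ± 0.28, limma adjusted p = 0.022). POLA2, the regulatory subunit of polymerase alpha, which starts new strands, read 7.48, 7.39 and 7.98 in Ra 48 h cells and 6.32, 6.52 and 6.57 in control 48 h cells, with 7.69 to 8.03 at 12 h. Its control arrays lay close together, and the difference was 1.15 ± 0.20 (adjusted p = 0.010). The catalytic partner POLA1 rose by 0.89 ± 0.20 (adjusted p = 0.020). POLE2 had 0.89 ± 0.35, POLD1 0.63, POLD3 0.60 and the primase subunit PRIM1 0.38, none past the threshold, and PRIM2 (0.04) and POLD2 (-0.12) lay near 0. POLD3 (0.91, adjusted p = 0.011), PRIM1 (0.48, adjusted p = 0.026) and POLD1 (0.67, adjusted p = 0.037) passed without Ra 48 h replicate 2, while PRIM2 had 0.35 and POLD2 turned to 0.08.

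Of the clamp and its 5 loader subunits, the clamp passed the test on all arrays, and RFC4 and RFC5 passed with it when Ra 48 h replicate 2 was left out. PCNA, the sliding ring that holds polymerases on DNA, read 13.13, 13.25 and 13.66 in Ra 48 h cells, against 11.86, 12.23 and 12.98 in control 48 h cells and 13.48 to 13.72 at 12 h. The groups did not overlap at 48 h, and the difference was 0.99 ± 0.22, a fold of 1.99 (limma adjusted p = 0.021). Of the 5 loader subunits, RFC5 came nearest: it read 10.16, 9.86 and 10.65 in Ra 48 h cells and 9.44, 9.65 and 9.83 in control 48 h cells, with 10.40 to 10.66 at 12 h. Its groups were separate by a small gap, and 0.58 ± 0.19 missed the threshold (adjusted p = 0.063; 0.013 without Ra 48 h replicate 2). The probe sets of RFC5 disagreed, at 0.61 and -0.89 for the other ones. RFC4 (0.42), RFC3 (0.34), RFC2 (-0.02) and RFC1 (-0.26) did not pass. With Ra 48 h replicate 2 left out these were 0.59 for RFC4 (adjusted p = 0.047), 0.58 for RFC3, 0.24 for RFC2 and -0.09 for RFC1.

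**Figure D3:**
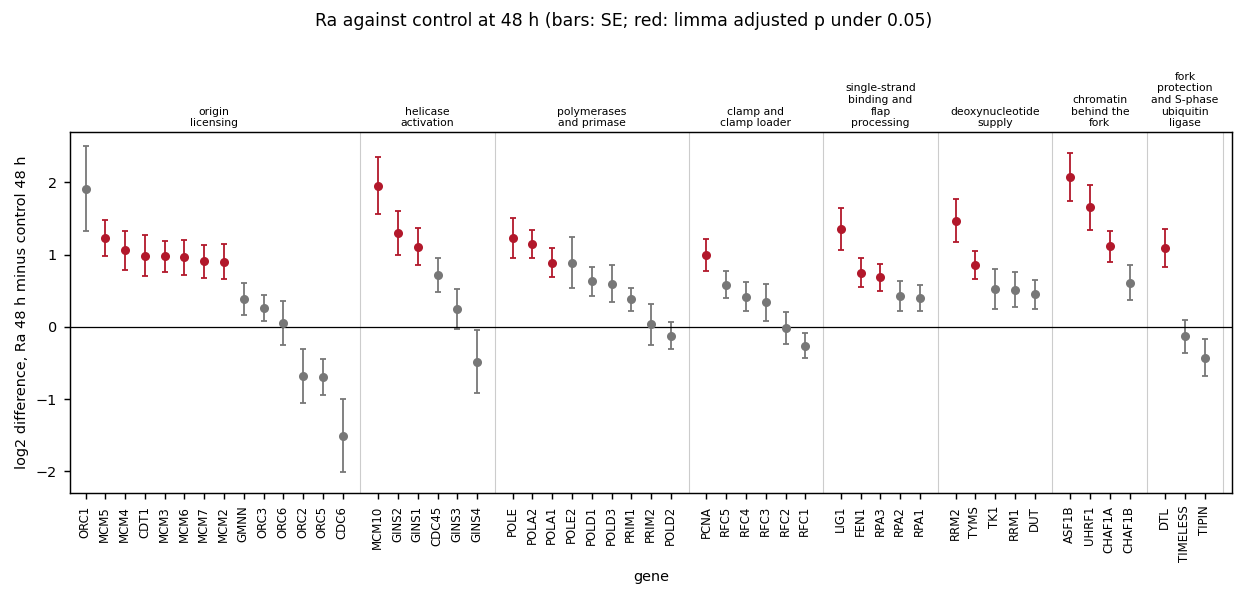
Difference between Ra and control cells at 48 h (y axis, log2 units) for the 52 genes tested, by role and in falling order within each role, with SE bars; red points have a limma adjusted p under 0.05. The 23 red points all lie above 0, between 0.69 for RPA3 and 2.07 for ASF1B, and CDC6 lies lowest at -1.51.

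Single-strand binding and flap processing held 5 genes, of which 3 rose. FEN1, the nuclease that trims the flaps of lagging-strand fragments, read 9.91, 9.78 and 10.65 in Ra 48 h cells, against 9.14, 9.47 and 9.48 in control 48 h cells and 10.45 to 10.87 at 12 h. LIG1, the ligase that then joins the fragments, read 8.22, 8.19 and 8.72 in Ra 48 h cells and 6.34, 7.03 and 7.70 in control 48 h cells, with 8.33 to 8.49 at 12 h. Neither gene's groups overlapped at 48 h, and the control arrays of LIG1 were spread over more than 1 log2 unit. The differences were 0.75 ± 0.21 for FEN1 (limma adjusted p = 0.037) and 1.35 ± 0.29 for LIG1 (adjusted p = 0.017). Of the single-strand binding protein, the small subunit RPA3 rose (0.69 ± 0.19, adjusted p = 0.037), while RPA2 (0.43) and RPA1 (0.40) did not pass. Both larger subunits passed without Ra 48 h replicate 2, RPA2 at 0.64 (adjusted p = 0.024) and RPA1 at 0.60 (adjusted p = 0.016).

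Of the 5 genes of deoxynucleotide supply 2 rose, and the median difference was 0.53. RRM2, the regulatory subunit of ribonucleotide reductase, read 12.48, 12.65 and 13.51 in Ra 48 h cells, against 10.73, 11.45 and 12.05 in control 48 h cells and 13.38 to 13.71 at 12 h. TYMS, the synthase that makes thymidylate, read 13.27, 13.06 and 13.44 in Ra 48 h cells and 11.98, 12.24 and 12.96 in control 48 h cells, with 13.34 to 13.42 at 12 h. In both genes all Ra arrays lay above all control arrays, and TYMS in Ra cells was near its level at 12 h. RRM2 rose by 1.47 ± 0.30, a fold of 2.77 (limma adjusted p = 0.015), and TYMS by 0.86 ± 0.20 (adjusted p = 0.022). The salvage kinase TK1 (0.53), the large reductase subunit RRM1 (0.52) and the dUTP hydrolase DUT (0.45) did not pass, with means higher in Ra cells; without Ra 48 h replicate 2, DUT passed (0.63, adjusted p = 0.036).

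Genes of chromatin assembly behind the fork had the highest median of any role, 1.38, and 3 of 4 rose. ASF1B, a chaperone that hands new histones to the assembly machinery, read 9.61, 9.51 and 10.50 in Ra 48 h cells, against 7.03, 8.01 and 8.35 in control 48 h cells and 9.88 to 10.48 at 12 h. The gap between the groups at 48 h exceeded 1 log2 unit, and the difference of 2.07 ± 0.33 (limma adjusted p = 0.0098), a fold of 4.21, was the largest of the 52. UHRF1, which recruits the maintenance DNA methyltransferase to newly copied DNA, read 10.82, 11.00 and 11.67 in Ra 48 h cells and 8.64, 9.79 and 10.09 in control 48 h cells, with 11.39 to 11.77 at 12 h. Its groups were separate too (1.65 ± 0.31, adjusted p = 0.013). CHAF1A, the large subunit of chromatin assembly factor 1, rose by 1.11 ± 0.22 (adjusted p = 0.013), and CHAF1B had 0.61 ± 0.24 (adjusted p = 0.10).

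The promoter of ASF1B follows, as that of the largest rise of all.
ASF1B, chr19:14136540-14136839, minus strand: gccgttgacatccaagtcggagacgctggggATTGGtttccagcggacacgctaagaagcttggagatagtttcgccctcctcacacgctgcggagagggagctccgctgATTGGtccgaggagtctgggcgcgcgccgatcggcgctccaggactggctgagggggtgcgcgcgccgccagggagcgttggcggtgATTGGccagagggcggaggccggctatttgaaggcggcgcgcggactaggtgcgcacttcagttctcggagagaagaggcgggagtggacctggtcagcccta
It held 0 E2F matches and 3 CCAAT matches. The promoters of the 3 highest differences (ASF1B, MCM10 and ORC1) each held 0 exact E2F matches in this window. The search took only the exact letters listed above, and similar letters with a mismatch were not counted.

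Of 3 genes of fork protection and the S-phase ubiquitin ligase 1 rose. DTL, the substrate receptor of the ubiquitin ligase that destroys CDT1 in S phase, read 11.26, 11.04 and 11.83 in Ra 48 h cells, against 9.71, 10.28 and 10.88 in control 48 h cells and 11.65 to 12.11 at 12 h. It rose by 1.09 ± 0.26 (limma adjusted p = 0.024), with no overlap at 48 h. TIPIN, of the fork protection complex, read 8.27, 7.55 and 8.75 in Ra 48 h cells and 8.52, 8.47 and 8.86 in control 48 h cells, with 8.93 to 9.52 at 12 h. Its groups overlapped (-0.43 ± 0.26, adjusted p = 0.26), and so did those of its partner TIMELESS (-0.13). Without Ra 48 h replicate 2 the differences were -0.11 for TIPIN and 0.11 for TIMELESS. CLSPN, below the filter, read 3.64, 3.73 and 4.26 in Ra 48 h cells and 2.39, 3.32 and 3.57 in control 48 h cells. A fit without the filter, over 19775 genes, gave CLSPN 0.78 ± 0.28 (adjusted p = 0.16).

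Genes around the replication machinery, from lists set for this report, were read in the same fit. The background with Ra at 48 h was 3.00% of all genes higher and 9.56% lower. Of 20 regulators of S-phase entry 19 were tested and 7 rose with Ra at 48 h: the cyclins CCNE2 (1.96 ± 0.28, limma adjusted p = 0.0083), CCNE1 (1.64) and CCNA2 (1.15), the ubiquitin ligase subunit SKP2 (1.83), the phosphatase CDC25A (1.35), MYBL2 (0.94) and the E2F partner TFDP1 (0.75). The inhibitor CDKN1A, at -0.91, missed the threshold (adjusted p = 0.079; -0.56 without Ra 48 h replicate 2), and E2F1 had 0.48 (0.59, adjusted p = 0.020, without that array). Of 20 other genes of the fork 4 rose, CDCA7 (1.31), DSCC1 (1.29), RECQL4 (0.93) and ATAD2 (0.72), and of 10 other deoxynucleotide genes 8 were tested and 0 passed, with 1 higher and 2 lower at an unadjusted p under 0.05 in limma, as were 843 and 2509 of all genes. The medians of these lists were 0.75, 0.36 and 0.06. Without Ra 48 h replicate 2 the lists held 10, 9 and 2 genes that rose, against a background of 11.2% of all genes.

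The control cells themselves changed over time, and in the opposite direction. In control cells 40 of the 52 genes fell at 48 h against 12 h and 0 rose, against a background of 10.1% of all genes lower, 9.37% higher and 19.5% called in either direction. The median was -1.06, beside 0.01 over all genes, 28 fell at least 2-fold, and all 3 arrays at 48 h lay under all 3 at 12 h for 45 genes (background 26.0%) and above them for 0 (background 24.8%). On the chosen probe sets MCM10 had the largest fall (-3.31 ± 0.39, limma adjusted p = 0.0012), followed by ORC1 (-3.09), ASF1B (-2.20), RRM2 (-2.11) and UHRF1 (-2.02). The other probe sets of MCM10 above the filter gave smaller falls, -1.84 and -2.22. The chosen set of MCM10 read 4.72 in control 48 h replicate 1, a level that depends on the background model. All 6 genes of helicase activation, 5 of 5 of single-strand binding and flap processing, 5 of 5 of deoxynucleotide supply and 4 of 4 of chromatin assembly fell, as did 9 of 14 of licensing, 5 of 9 polymerase genes, 4 of 6 of clamp and loader and 2 of 3 of fork protection.

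The 12 genes that did not pass were ORC2, ORC3, ORC5, ORC6, CDC6, PRIM1, PRIM2, POLD1, POLD2, RFC1, RFC2 and TIMELESS. CDC6 had the highest difference, 0.31, with 2 control arrays at 48 h above and 1 below the level of 12 h. On the 6 control arrays alone 40 genes fell as well (background 16.6%), though not the same 40. There ORC6 passed (limma adjusted p = 0.028) and CDT1 did not (adjusted p = 0.067). Among the regulators, SKP2 (-2.73), CCNE2 (-2.67), CCNE1 (-2.25), E2F8 (-2.25) and CDC25A (-2.11) fell in control cells, 12 of 19 in all (background 10.1%). CDKN1A rose (1.18, limma adjusted p = 0.025; background 9.37%).

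In Ra cells the differences over the same interval had a smaller median. At 48 h against 12 h in Ra cells 0 of the 52 genes passed limma's test, with 0% of all genes called as background, and 15 were lower at an unadjusted p under 0.05, as were 1403 of all genes. Means were lower at 48 h for 50 of the 52 genes, by a median of -0.40, beside -0.21 over all genes, and without Ra 48 h replicate 2 the median was -0.23. All 3 arrays at 48 h were under all 3 at 12 h for 21 genes, against a background of 17.0%. GINS4 had the largest difference, -2.50 (adjusted p = 0.096), with 7.06, 5.45 and 6.01 in Ra 48 h cells and 8.20, 8.78 and 9.04 in Ra 12 h cells, followed by ORC1 (-1.25), MCM10 (-1.19) and CDC6 (-1.09). Without Ra 48 h replicate 2 these were -2.14 for GINS4, -0.68 for ORC1, -0.82 for MCM10 and -0.63 for CDC6. POLE (0.05) and LIG1 (0.01) lay near 0, and GINS4 passed as lower after centring each array on the median of the genes tested (-2.25, adjusted p = 0.020; background 0.786%).

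The comparison of Ra with control at 48 h and that of control cells over time use the same control 48 h arrays. Set side by side, PCNA differed by 0.99 between Ra and control at 48 h and by -1.14 in control cells over time. RRM2 gave 1.47 and -2.11, ASF1B 2.07 and -2.20, and MCM10 1.95 and -3.31. The other probe sets of MCM10 above the filter gave 0.96 with -1.84 and 0.99 with -2.22.

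**Figure D4:**
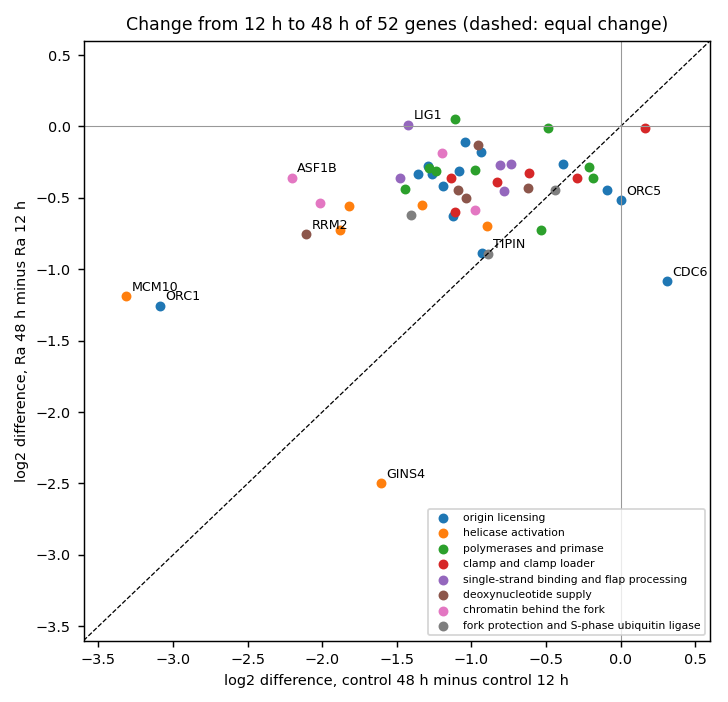
Change from 12 h to 48 h of the 52 genes tested, in Ra cells (y axis) and in control cells (x axis), both as log2 differences, coloured by role, with a dashed line of equal change. Most points lie left of 0 and above the line, and ORC1 and MCM10 lie farthest left. Below the line lie 11 genes, among them GINS4, CDC6 and ORC5.

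Replicates at 48 h differed in the same way for most genes. The mean of the 52 genes relative to control 12 h cells was -0.46, -0.82 and -0.05 on the Ra 48 h arrays and -1.47, -1.03 and -0.72 on the control 48 h arrays, against 0.01 to 0.07 on the Ra 12 h arrays. Replicate 3 was the highest Ra 48 h array for 46 of the 52 genes and the highest control 48 h array for 42. Replicate 2 was the lowest Ra array for 40, and replicate 1 the lowest control array for 44. On these arrays the median of all genes lay between -0.01 and 0.03 from control 12 h cells, apart from Ra replicate 2 at -0.65.

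**Figure D5:**
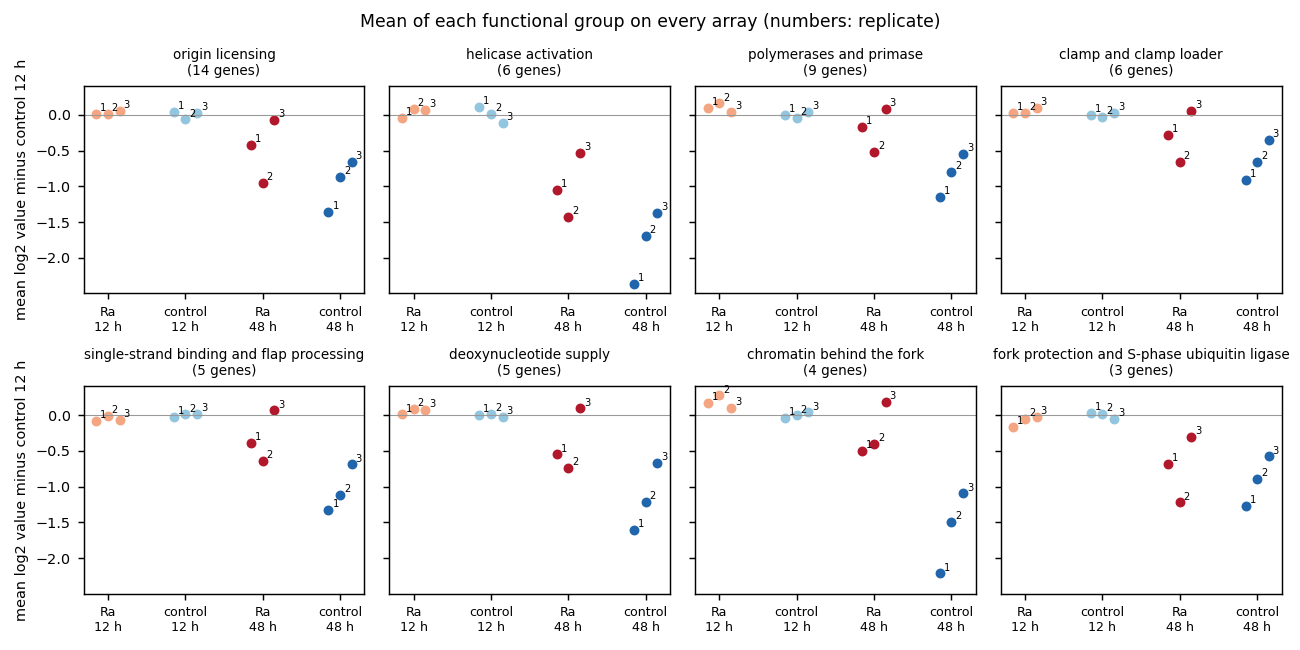
Mean over the tested genes of each role on every array (points, numbered by replicate), as log2 value minus the mean of control 12 h cells. In each role the 6 arrays at 12 h lie near 0, control 48 h replicate 1 lies lowest of its group, and Ra 48 h replicate 3 lies highest of its group, near 0 in all roles but helicase activation and fork protection.

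At 12 h the differences between Ra and control cells were small. In the fit over all arrays 0 of the 52 genes passed limma's test, against a background of 0.0299% of all genes, and 1, PRIM1, was higher at an unadjusted p under 0.05, as were 467 of all genes. The median difference was 0.05 and the range -0.42 to 0.55. Fitted on the 6 arrays of 12 h alone, where replicates lay closer, 6 of the 52 passed, against a background of 13.6%: PRIM1 (0.55 ± 0.09, adjusted p = 0.012), PCNA (0.21), DTL (0.31) and DUT (0.26) as higher (background 7.34%) and FEN1 (-0.37) and TIPIN (-0.42) as lower (background 6.25%). PRIM1, which makes the RNA primers of new strands, read 10.22, 10.27 and 10.43 in Ra 12 h cells and 9.80, 9.65 and 9.81 in control 12 h cells. The groups did not overlap for 14 genes that were higher (background 18.4%) and 7 that were lower (background 16.9%) in Ra cells. For 2 genes (3.85%), MCM10 and FEN1, the groups were separate at both times and in opposite order, near the background of 2.65%.

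The difference between the effects of Ra at 48 h and at 12 h was tested as an interaction, which equals the change over time in Ra cells minus that in control cells. With limma 0 of the 52 genes passed (lowest adjusted p = 0.103), against a background of 0.0199% of all genes, and 22 were higher at an unadjusted p under 0.05, as were 386 of all genes, with a median of 0.66 beside -0.19 over all genes. Without Ra 48 h replicate 2, ASF1B, FEN1, MCM10 and POLA2 passed (background 1.56%), at 2.03, 1.29, 2.50 and 1.11. After centring each array on the median of the genes tested, 19 passed as higher (background 4.18%), with a median of 0.92. A larger effect at 48 h than at 12 h is thus not shown for any single gene in the fit as reported.

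The choice of probe set left the direction in place for most genes. At 48 h 28 of the 29 other probe sets above the filter, from 23 of the genes, had the sign of the chosen one, RFC5 holding the exception. Of the chosen probe sets 22 have names ending in _s_at, _x_at or _a_at and were counted as able to cross-hybridise. The ending was the only ground for this, and the set of TK1 was counted by the ending _a_at. Without such sets 13 genes rose, and some genes, such as MCM2, had no probe set left to test. The share of all genes called there is not given.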

How the data were processed

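Total RNA of 12 HK-2 samples, 3 in each of 4 groups taken from the labels, was measured on Affymetrix arrays. The deposited values are log2 values made by the authors with GCRMA, per the submitters' processing notes; no version of GCRMA, nor which arrays were normalized together, is given in the sources used here. GCRMA shrinks low signals, so values under about 5 log2 units depend on its background model. The number of arrays limits the precision.

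Of 54675 probe sets 41097 had 1 gene symbol, 1801 several and 11777 none in the platform annotation, and RefSeq held the Entrez number of 41043, with 0 symbols renamed. Probe sets of 1 symbol with at least 3 arrays at or above 5 log2 units were kept (17339), and the one with the highest mean stood for its gene. limma 3.58.1 (R 4.3.3) fitted 1 mean per group over all 12 arrays, with 8 residual degrees of freedom, moderation trended on intensity, and p-values adjusted by Benjamini-Hochberg over 10050 genes; the method was tested on simulated data. Labels call the replicates biological, without naming separate cultures, so p-values measure the spread between these samples.

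The members and lists were chosen with earlier results of these data known. By rule all members could be named, with values on every array at 48 h for the 2 of each role with the largest absolute difference there and for any member at least 1 log2 unit against the members' direction, and up to 4 genes of each surrounding list by size at 48 h; other array values and other genes of these lists were picked after their values were seen. Replicate numbers went with each other at 12 h (correlations of deviations from group means 0.182, 0.421 and 0.344 for the same number) and not at 48 h (0.301, -0.219 and 0.097), and the labels do not say what the numbers share. Alternatives were other filters, probe sets, scalings, a replicate block, array weights, 6-array fits and dropping each array in turn; centring on the median of all probe sets was added after seeing the data. Promoter letters were searched in RefSeq sequences. Protein sequences were not used here. Figures were drawn with matplotlib 3.10.9 in Python 3.11.15.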

Additional observations from a re-analysis of the deposited data

Results flagged for a closer look

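For 2 of the 52 genes (3.85%) the Ra and control arrays did not overlap at either time and lay in opposite order at the 2 times. They did so for 266 of all 10050 genes (2.65%), a share near that of the 52. MCM10 was lower in Ra cells at 12 h (-0.17) and higher at 48 h (1.95), so that the effect at 48 h minus that at 12 h was 2.12. FEN1 was likewise lower at 12 h (-0.37) and higher at 48 h (0.75), with 1.12 for the effect at 48 h minus that at 12 h. The test of this difference did not pass in limma for either gene (adjusted p = 0.108 for both); without Ra 48 h replicate 2 it passed for both (adjusted p = 0.039 for each).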

How the results depend on the processing

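The direction of the median kept its sign at 48 h, in the interaction and over time in Ra and in control cells under every alternative run; at 12 h it was -0.0041 when the probe sets of a gene were averaged, and the cause was not tested. The count of the genes called with Ra at 48 h was 23 as reported. It was 9 without a filter and 13 without probe sets counted as able to cross-hybridise. With quantile normalization it was 41, and 41 after centring each array on the median of the genes tested. It was 0 with array weights per group (limma) or with the 6 arrays compared alone. On those 6 arrays 24 were higher and 1 lower at an unadjusted p under 0.05 in limma (404 and 1344 of all genes). Leaving out 1 array gave 1 to 33: among control 48 h arrays it was 3 when replicate 1 was left out, 1 for replicate 2 and 32 for replicate 3, and among Ra 48 h arrays 26, 33 and 8 for replicates 1, 2 and 3; the median ran from 0.48 to 0.84. At 12 h the count was 3 with array weights and 6 with 6 arrays, and 0 to 1 without 1 array (median 0.0291 to 0.0651). For the interaction it was 19 with quantile normalization, 19 after centring and 0 to 16 without 1 array (median 0.45 to 0.82), and 1 with the replicate block, which gave 25 at 48 h and changed no other count by over 1.5 times. Over time the count was 24 to 44 in control cells without 1 array (median -1.29 to -0.84), and in Ra cells 1 with a filter at 7 log2 units, 1 with quantile normalization, 1 after centring and 0 to 5 without 1 array (median -0.61 to -0.23). Most counts in this paragraph stand without the share of all genes called under the same setting. At 48 h that share moved too, from 3.00% higher as reported to 11.2% without Ra 48 h replicate 2 and 15.7% after centring. A changed count is therefore not read as a change in these genes alone. For the 16 genes whose array values are given by rule, 363 alternative differences at 48 h were read. Of these 284 were on the same side of the threshold, 64 no longer passed, 15 newly passed and 0 had the opposite sign. Genes whose array values were picked later, such as MCM2 and MCM5, were not among the 16. Low values, such as those of ORC1, MCM10 and CLSPN in control 48 h cells, depend on the background model.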

Other observations

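Of the 8 other deoxynucleotide genes tested, the mitochondrial thymidine kinase TK2 had the largest difference at 12 h, 1.09 ± 0.21 in Ra against control cells, which did not pass in limma (adjusted p = 0.148). It passed on the 6 arrays of 12 h alone (adjusted p = 0.011) and when Ra 48 h replicate 2 was left out of the fit (adjusted p = 0.0175). At 48 h the difference was 0.40 ± 0.21 (adjusted p = 0.202), and 0.57 without that array (adjusted p = 0.045). The pyrophosphatase DCTPP1 fell over time in control cells by 1.13 (adjusted p = 0.0048), as did the nucleoside diphosphate kinase NME1 by 0.53 (adjusted p = 0.042). Neither passed between Ra and control cells at 48 h (0.17 and -0.38, or 0.27 and -0.18 without Ra 48 h replicate 2). The p53-inducible reductase subunit RRM2B had differences of -0.62 with Ra at 48 h and 0.40 over time in control cells, beside 1.47 and -2.11 for RRM2. Neither difference of RRM2B passed the threshold, and the first was -0.28 without Ra 48 h replicate 2.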
